A study of Mus musculus with 8 samples.

Results

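The genes described here encode the contractile apparatus of striated muscle and the proteins that assemble it, fuse its cells, receive its nerves and fuel it. There are 41 of them among 18194 genes measured, picked by symbol and sorted here into 8 roles. Of these, 33 are genes of skeletal muscle, in part shared with the heart, and 8 are best known from heart muscle. All 41 were measured, each through its brightest probe set (highest mean over the 8 arrays) among those annotated to that symbol alone.

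The RNA came from the mandibular arch, the embryonic forerunner of the lower jaw, of C57BL/6J mouse embryos at embryonic day 11.5, with sex not determined. The 4 controls were Alk5 fl/fl, with floxed alleles of the TGF-beta receptor gene Alk5 (Tgfbr1), and their labels name no Cre. The 4 mutants were Wnt1-Cre;Alk5 fl/fl, so the floxed alleles are common to both groups. Wnt1-Cre acts in the neural crest lineage, which forms most of the arch mesenchyme, whereas the muscle cells of the arch come from mesoderm. The comparison asked what loss of the receptor in crest cells does to the muscle precursors lying among them. An effect of the driver alone cannot be told apart from that of losing Alk5. The labels number the samples but do not say that each is a separate embryo or litter. The p-values therefore measure the spread between these samples, which may in part be technical.

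In the arch, muscle precursors switch on the MyoD-family factors Myf5 and Myod1, then leave the cell cycle, express myogenin (Myog) and begin to make sarcomeres. The sarcomere slides thick filaments of myosin heavy chains (Myh) and light chains (Myl) along thin filaments of actin, tropomyosin (Tpm) and troponin (Tnnc, Tnni, Tnnt). Embryonic skeletal muscle also uses isoforms that later belong to slow or heart muscle, such as Actc1, Tnnt2 and Myl4. MyoD-family factors bind the E-box, CANNTG, with a preference for CAGCTG.

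Promoters are shown because E-boxes are the best known shared feature of muscle genes and the choice of members did not use sequence. The 6 printed here are of the assembly factor gene Klhl41 (chr2:69669870-69670119, plus strand), the acetylcholine receptor gene Chrna1 (chr2:73580339-73580588, minus strand), the fast myosin light chain gene Mylpf (chr7:127211358-127211607, plus strand), the cardiac actin gene Actc1 (chr2:114052876-114053125, minus strand), the muscle enolase gene Eno3 (chr11:70656926-70657175, plus strand) and the atrial myosin light chain gene Myl7 (chr11:5898783-5899032, minus strand). Each runs 5′ to 3′ over the 250 bases before the RefSeq start site in GRCm38.p6, and capitals mark every CANNTG.
Klhl41: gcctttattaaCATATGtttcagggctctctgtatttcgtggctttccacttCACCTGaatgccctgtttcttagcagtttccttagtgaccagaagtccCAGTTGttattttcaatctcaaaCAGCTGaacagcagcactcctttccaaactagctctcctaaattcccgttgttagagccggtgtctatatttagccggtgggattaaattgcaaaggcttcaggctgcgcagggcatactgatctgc
Chrna1: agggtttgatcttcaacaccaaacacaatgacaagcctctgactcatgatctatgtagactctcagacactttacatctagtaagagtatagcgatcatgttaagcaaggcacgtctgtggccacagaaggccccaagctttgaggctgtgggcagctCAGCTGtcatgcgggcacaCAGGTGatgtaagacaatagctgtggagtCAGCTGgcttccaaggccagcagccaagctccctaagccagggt
Mylpf: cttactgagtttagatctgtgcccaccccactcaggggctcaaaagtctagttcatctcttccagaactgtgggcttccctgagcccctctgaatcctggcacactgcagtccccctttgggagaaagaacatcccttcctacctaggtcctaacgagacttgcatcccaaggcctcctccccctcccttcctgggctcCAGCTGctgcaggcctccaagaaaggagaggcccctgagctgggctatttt
Actc1: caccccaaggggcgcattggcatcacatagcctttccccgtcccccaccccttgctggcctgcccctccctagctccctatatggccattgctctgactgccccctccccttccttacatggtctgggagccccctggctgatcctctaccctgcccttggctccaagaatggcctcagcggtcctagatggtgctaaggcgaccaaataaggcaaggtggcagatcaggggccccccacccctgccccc
Eno3: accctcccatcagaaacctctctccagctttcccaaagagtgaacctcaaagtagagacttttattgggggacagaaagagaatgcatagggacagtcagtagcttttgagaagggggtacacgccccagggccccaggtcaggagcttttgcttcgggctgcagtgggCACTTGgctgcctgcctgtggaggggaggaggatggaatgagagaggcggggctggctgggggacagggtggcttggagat
Myl7: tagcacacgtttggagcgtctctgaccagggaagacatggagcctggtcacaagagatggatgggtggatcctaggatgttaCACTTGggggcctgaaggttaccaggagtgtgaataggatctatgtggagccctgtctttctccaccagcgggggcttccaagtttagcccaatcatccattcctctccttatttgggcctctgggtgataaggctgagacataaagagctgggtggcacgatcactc
Klhl41 held 4 E-boxes, of which 1 was CAGCTG, and Chrna1 held 3, of which 2 were CAGCTG. Mylpf held a single CAGCTG 51 bases before its start. Actc1 held no CANNTG in this window. Eno3 and Myl7, the members that rose in the mutants, each held a single CACTTG, at 81 and 168 bases before the start. CACTTG also stood in the junction gene Musk, and its other-strand reading CAAGTG in the natriuretic peptide gene Nppa, neither of which passed. The share of CACTTG over all genes was not computed.

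RefSeq promoters were found for 35 of the 41 members. The motif CAGCTG stood in 17 of the 35 (48.6%), against 2157 of 14453 measured genes with a promoter of the same length (14.9%). The looser CANNTG, of which CAGCTG is a case, stood in 31 (88.6%), against 65.2% of those genes. Both motifs read the same on either strand, and a gene with several start sites was counted if any of them had the motif. CAGCTG stood in 14 of 27 skeletal muscle members (51.9%) and 3 of 8 heart muscle members (37.5%). A match is a description of the letters and not a binding site.

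Mandibular arch identity showed in both groups, with mean log2 values of 12.35 in controls and 12.08 in mutants for Hand2, 13.27 and 12.93 for Prrx1, and 10.94 and 11.13 for Dlx5. Msx1 averaged 11.70 and 11.11, Dlx6 9.70 and 9.63, and Barx1 11.19 and 10.98. In Hand2, Prrx1 and Msx1 every mutant lay below every control, as in 7.02% of all genes. The smallest limma adjusted p of these markers was 0.0675, in Msx1. Tgfbr1 itself was not lower in the mutants (12.79 ± 0.0844 in controls, 12.98 ± 0.0115 in mutants, SD, n = 4, difference 0.19, limma adjusted p = 0.232), and since the sources do not say whether its probes lie in the floxed part, it does not check the labels. Array medians lay between 6.28 and 6.42. Mutant 3 stood apart with a standard deviation over probe sets of 2.42 against 2.52 to 2.56 elsewhere, and several results that rest on it are given without it as well. Of all genes, 390 (2.14%) differed between the groups at an adjusted p under 0.05 (limma, Benjamini-Hochberg over all genes), 152 higher (0.835%) and 238 lower (1.31%) in the mutants.

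Among the 41 members, Eno3 and Myl7 rose in the mutants, none fell, and 39 did not pass. A share of 2 in 41 stands against 0.835% of all genes that rose. The members' log2 fold changes (mutant minus control) ranged from -0.25 to 1.77, with 27 above 0 and a median of 0.06, and the median of all genes was -0.01. In Eno3, Myl7 and the cardiac troponin gene Tnni3 all mutant arrays lay above all control arrays, and no member showed the opposite, while 3.27% of all genes had wholly higher and 7.02% wholly lower mutants. The number above 0 depended on single arrays, being 37 without control 1 and 33 without mutant 4. It was 21 without mutant 3, 18 without mutant 2 and 17 without control 4. The members' median ranged from 0.24 without control 1 to -0.11 without control 4, and was 0.002 without mutant 3. RNA of a whole arch cannot tell fewer muscle cells from less muscle RNA per cell. The count of 2 became 1, with Eno3 left, without any single array other than mutant 3, since Myl7 then lost its call.

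**Figure D1:**
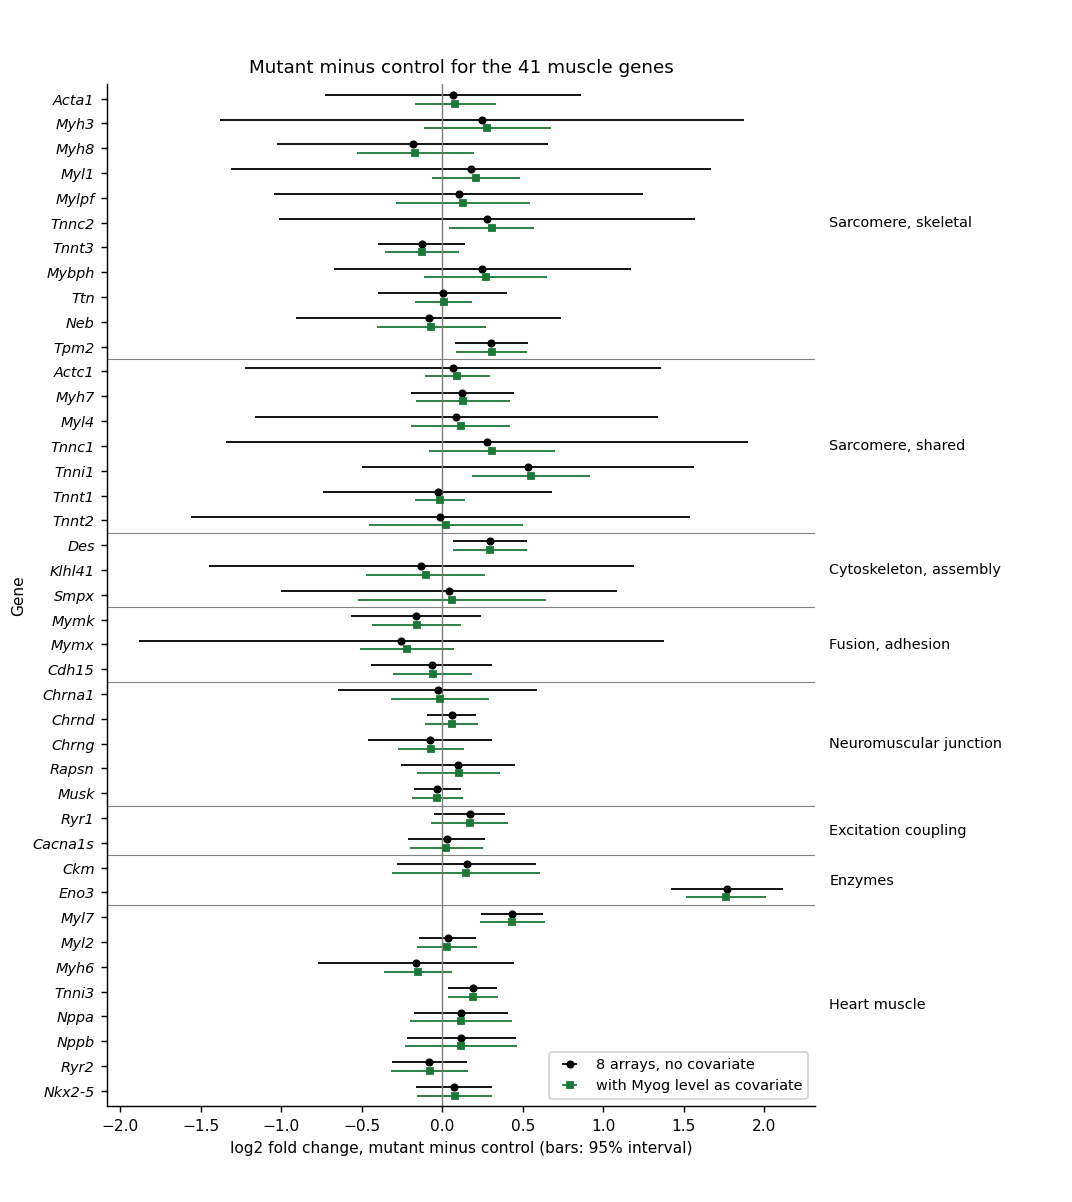
Log2 fold change (mutant minus control, horizontal axis) of the 41 members by role, with 95% intervals as bars, from the 8 arrays alone (black circles) and with the Myog level of each array as a covariate (green squares). Eno3 stands at 1.77, Myl7 at 0.43 and every other member between -0.25 and 0.53, and most sarcomere genes have wide black bars that shrink to short green ones.

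The 11 sarcomere genes of skeletal muscle had a median log2 fold change of 0.10, and none passed. Myh3, the embryonic myosin heavy chain, read 9.32, 7.47, 6.82 and 5.72 in controls 1 to 4 and 7.85, 8.64, 7.65 and 6.18 in mutants 1 to 4 (log2 values). Myl1, a fast alkali light chain, read 10.37, 8.19, 8.10 and 6.97 in controls and 9.06, 9.36, 8.59 and 7.35 in mutants. In both genes control 1 was the highest and control 4 the lowest of all 8 arrays, and the groups overlapped throughout. The controls of Myh3 spanned a 12.2-fold range and the mutants a 5.51-fold range, against a difference between the means of 0.25 ± 0.726 (SE, 95% interval -1.38 to 1.87, limma adjusted p = 0.916). Mylpf spanned 6.60-fold in controls and 2.48-fold in mutants, with a difference of 0.10 (-1.04 to 1.25). The skeletal alpha-actin gene Acta1 gave 0.06 (-0.73 to 0.86) and the fast troponin C gene Tnnc2 0.28 (-1.01 to 1.57).

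Tpm2, beta-tropomyosin, was the brightest gene of this role and the one with the smallest p. It read 11.21, 10.96, 11.00 and 10.76 in controls and 11.37, 11.19, 11.21 and 11.37 in mutants. The mutants were close together and only control 1 reached into their range. The difference of 0.30 ± 0.101 (0.08 to 0.53) did not pass (limma adjusted p = 0.202). Its 4 probe sets differed by 0.16 to 0.37, all above 0. Tpm2 is also made outside striated muscle, in smooth muscle and fibroblasts.

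The giant proteins were dim. Nebulin (Neb) averaged 4.19 over the 8 arrays, and the brightest of 6 titin (Ttn) probe sets averaged 5.71. For Ttn the difference was 0.00 (-0.40 to 0.40), for Neb -0.08 (-0.91 to 0.74). The perinatal myosin gene Myh8 gave -0.18, the fast troponin T gene Tnnt3 -0.13 and the myosin-binding protein H gene Mybph 0.25, none of them past the threshold. A further, dimmer Ttn probe set read 6.29 in control 1 against 4.18 to 4.57 in the other controls, with control 4 again the lowest. In every other Ttn probe set dimmer than the brightest, control 1 was not the highest control. The brightest of these read 5.50, 5.61, 5.57 and 5.47 in controls.

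The 7 sarcomere genes that embryonic skeletal muscle shares with slow or heart muscle had a median of 0.09, and none passed. Actc1, the brightest, read 12.46, 10.77, 10.74 and 9.62 in controls and 11.17, 11.74, 11.19 and 9.74 in mutants. Control 1 and mutant 2 were the highest of their groups and the number 4 arrays the lowest, so the groups covered one another. The controls spanned 7.17-fold and the mutants 3.98-fold, and the difference was 0.06 ± 0.577 (-1.23 to 1.36, adjusted p = 0.975). Tnnc1, the slow and cardiac troponin C, read 9.73, 7.78, 7.23 and 6.06 in controls and 8.32, 9.03, 7.87 and 6.68 in mutants. Its spans were 12.7-fold and 5.12-fold, among the widest of the members, and its difference was 0.28 (-1.35 to 1.90).

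Tnni1, slow troponin I, had the smallest p of this role. It read 9.29, 7.65, 7.69 and 6.78 in controls and 8.49, 9.00, 8.16 and 7.88 in mutants. All mutants lay above controls 2 to 4 and all below control 1. The difference of 0.53 ± 0.460 (-0.50 to 1.56) was the largest of a member that did not pass (adjusted p = 0.688). The other members gave 0.12 for the slow myosin gene Myh7, 0.09 for Myl4, -0.03 for the slow troponin T gene Tnnt1 and -0.01 for Tnnt2. The brightest probe set of Tnnt2 spanned 10.9-fold in controls, and one nearly as bright gave 0.18 with the same array order. The median of this role depended on single arrays. It was 0.60 without control 1, 0.47 without mutant 4, -0.17 without mutant 2 and -0.26 without control 4, just under 0 without mutant 1, and 0.01 to 0.10 without any of the others. The skeletal sarcomere median moved likewise, from 0.41 without control 1 to -0.20 without control 4.

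**Figure D2:**
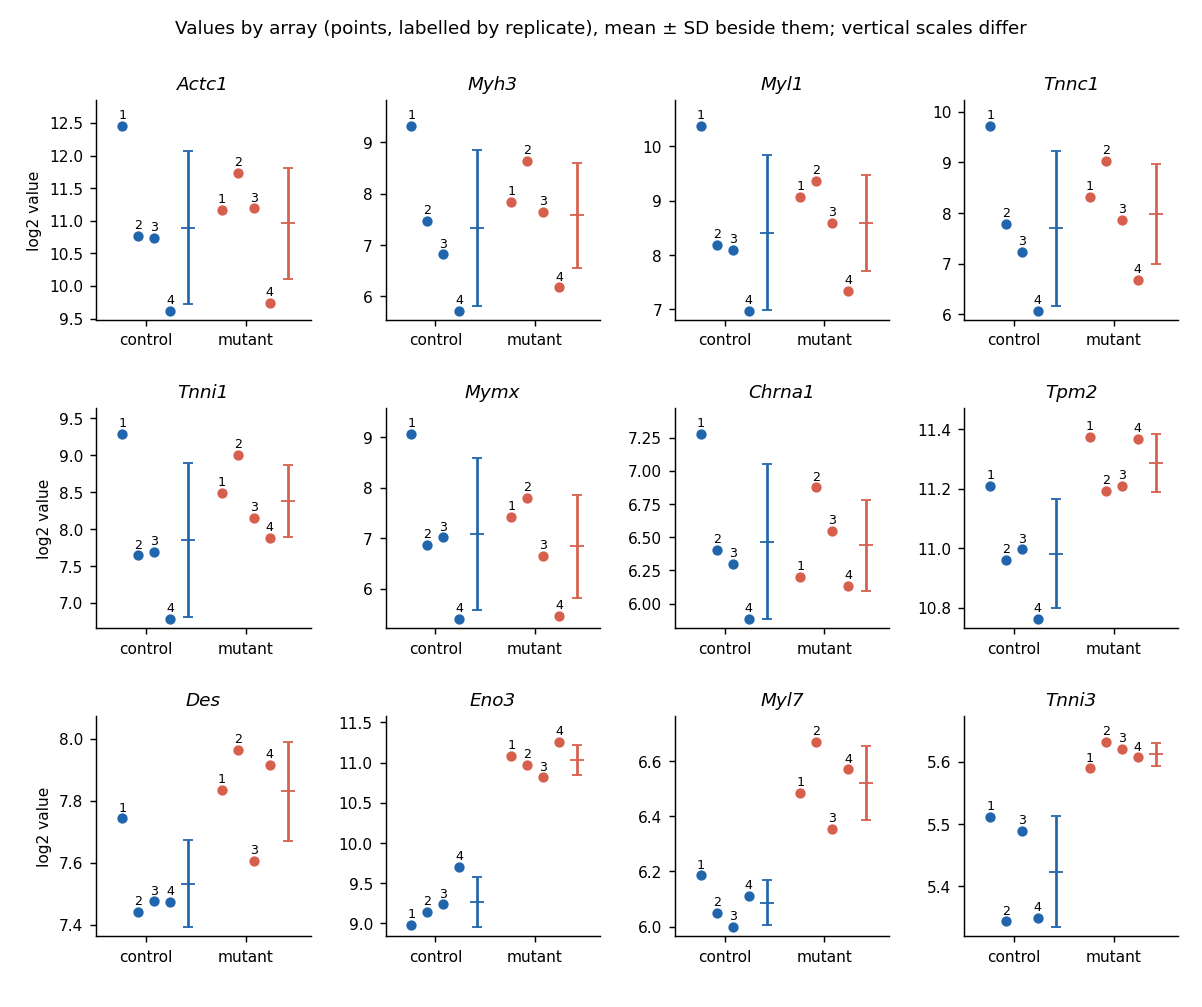
Log2 values (vertical axis, scales differ between panels) of 12 members on each array, controls in blue and mutants in red, with replicate numbers beside the points and mean ± SD (n = 4) to their right. In Actc1, Myh3, Myl1, Tnnc1, Tnni1 and Mymx control 1 is the top point and control 4 the lowest, whereas in Eno3, Myl7 and Tnni3 every mutant point lies above every control point.

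Of the 3 genes of the cytoskeleton and sarcomere assembly none passed (median 0.04, and from -0.18 without control 4 to 0.48 without control 1). Desmin (Des), the muscle intermediate filament protein, read 7.74, 7.44, 7.48 and 7.47 in controls and 7.84, 7.96, 7.61 and 7.92 in mutants. Only mutant 3 lay below control 1. Its difference of 0.30 ± 0.102 (0.07 to 0.53) had an adjusted p of 0.221 in limma, and with arrays weighted by their quality it passed (0.37, adjusted p = 0.0194). With those weights 1356 of all genes passed, against 390 without them. The dimmer Des probe set gave 0.18, with mutant 3 the highest array. Klhl41, which stabilises nebulin, spanned 9.07-fold in controls and 2.75-fold in mutants, with a difference of -0.13 (-1.45 to 1.19). The small muscle protein gene Smpx gave 0.04 ± 0.466 (SE).

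The 3 genes of fusion and myoblast adhesion all had differences below 0 (median -0.16), and none passed. Mymx, the fusion micropeptide myomixer, read 9.07, 6.87, 7.02 and 5.40 in controls and 7.43, 7.80, 6.65 and 5.47 in mutants. Its 12.8-fold span among controls was the widest of all members, and the difference was -0.25 ± 0.726 (-1.88 to 1.37). Myomaker (Mymk), the membrane protein that acts with it, read 6.35, 5.63, 5.81 and 5.59 in controls and 5.56, 5.74, 6.00 and 5.43 in mutants (-0.16, adjusted p = 0.752). M-cadherin (Cdh15), which joins myoblasts, read 8.45, 7.76, 7.74 and 7.82 in controls and 7.98, 8.11, 7.73 and 7.68 in mutants (-0.07, adjusted p = 0.903). In all of them control 1 was the highest array and the remaining controls lay within or below the mutant range. Without control 1 the median was 0.10, above 0, and without any other single array it lay between -0.25 and 0.

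Of the 5 neuromuscular junction genes none passed, and all were dimmer than the median gene (7.63). Their median was -0.03, and it turned to 0.10 without control 1, 0.05 without mutant 1 and 0.06 without mutant 4. The gamma subunit of the fetal acetylcholine receptor, Chrng, read 7.46, 6.70, 6.91 and 6.70 in controls and 6.84, 7.04, 6.98 and 6.61 in mutants (-0.07, adjusted p = 0.892). The alpha subunit, Chrna1, read 7.28, 6.40, 6.30 and 5.89 in controls and 6.20, 6.88, 6.55 and 6.14 in mutants (-0.03, -0.64 to 0.59). In both, control 1 was the highest control and control 4 the lowest, level with control 2 in Chrng. The delta subunit, Chrnd, read 6.79, 6.82, 6.77 and 6.69 in controls and 6.77, 6.79, 6.92 and 6.83 in mutants (0.06, adjusted p = 0.764), nearly flat over the arrays. Rapsyn (Rapsn), which clusters the receptors, gave 0.10 (-0.26 to 0.45) and the agrin-responsive kinase gene Musk -0.03 (-0.18 to 0.12).

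The calcium release and voltage-sensing channels of excitation-contraction coupling were dim. Ryr1, in the store membrane, read 5.40, 5.25, 5.31 and 5.43 in controls and 5.43, 5.43, 5.79 and 5.43 in mutants (0.17, adjusted p = 0.516). Mutant 3 alone stood out, and without it the difference was 0.08. Cacna1s, in the surface membrane, averaged 4.01 in controls and 4.03 in mutants. Both lay under the lower quartile of gene means (5.705).

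Eno3, the beta-enolase of muscle glycolysis, rose 3.41-fold. It read 8.98, 9.14, 9.24 and 9.71 in controls and 11.09, 10.98, 10.82 and 11.26 in mutants. The lowest mutant stood more than 1 log2 unit above the highest control, and the array order of the sarcomere genes was absent, control 4 being the highest control and mutant 4 the highest mutant. The means were 9.27 ± 0.313 and 11.03 ± 0.186 (SD, n = 4), a difference of 1.77 ± 0.155 (1.42 to 2.12, limma adjusted p = 0.00129). The exact two-sided permutation p over the 8 arrays was 0.0286, the smallest that 70 relabelings can give. Eno3 passed in all 17 alternatives, at 1.60 to 1.91. It has 1 probe set. Its neighbours on chromosome 11 in RefSeq GRCm38.p6 did not pass, Pfn1 having the largest difference (0.27, adjusted p = 0.186). Muscle creatine kinase (Ckm), the other enzyme gene, read 6.83, 6.79, 6.67 and 6.91 in controls and 6.62, 6.68, 7.61 and 6.89 in mutants (0.15, -0.28 to 0.58), with mutant 3 alone standing out and a difference of -0.07 without it.

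Eno3 was set against 13 measured genes of the enolase family and glycolysis, of which none passed (median 0.07, largest 0.24). The enolase genes Eno1 and Eno1b, also listed, were not among the measured genes and could not be compared. The enolase genes left, Eno2 and Eno4, were dim, both under the lower quartile of gene means (5.705). The testis enolase gene Eno4 gave 0.24 (adjusted p = 0.376), the neuronal enolase gene Eno2 0.15 and the hexokinase gene Hk1 -0.33 (adjusted p = 0.0880). Eno3 thus stood outside both the range of these genes and that of the other muscle members, which was described and not tested.

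Of the 8 heart muscle genes 1 rose, where 0.835% of all genes rose. Their median was 0.10, against -0.01 in all genes. All 8 were dimmer than the median gene and 5 lay under the lower quartile. Myl7, the atrial regulatory light chain, read 6.19, 6.05, 6.00 and 6.11 in controls and 6.49, 6.67, 6.36 and 6.57 in mutants. Every mutant lay above every control. The means were 6.09 ± 0.081 and 6.52 ± 0.133 (SD, n = 4), a 1.35-fold rise of 0.43 ± 0.0848 (0.24 to 0.62, limma adjusted p = 0.0353, exact two-sided permutation p = 0.0286). The difference was 0.38 to 0.49 when single arrays were left out, but the adjusted p was 0.0541 to 0.145 without any of the arrays other than mutant 3, and 0.0128 without mutant 3. It also missed the threshold after quantile normalization (0.0556) and median centring (0.0881). Its neighbours Aebp1, Pold2 and Ykt6 gave 0.08, -0.15 and -0.11.

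Tnni3, cardiac troponin I, read 5.51, 5.34, 5.49 and 5.35 in controls and 5.59, 5.63, 5.62 and 5.61 in mutants. The groups did not overlap, and the difference of 0.19 (0.04 to 0.34) did not pass (adjusted p = 0.251). Nkx2-5, the homeobox factor of heart and pharyngeal mesoderm, read 7.42, 7.09, 7.32 and 7.15 in controls and 7.16, 7.32, 7.54 and 7.26 in mutants (0.07, adjusted p = 0.808). Its groups interleaved. The other genes gave 0.03 for the ventricular light chain gene Myl2, -0.16 for the alpha-myosin gene Myh6, 0.12 and 0.12 for the natriuretic peptide genes Nppa and Nppb, and -0.08 for the cardiac ryanodine receptor gene Ryr2. In Nppa, Nppb and Nkx2-5 mutant 3 was the highest of the 8 arrays, as it was in 26.9% of all genes. Without mutant 3 the median of the role was -0.01, and Nppa and Nppb each gave -0.03. A further 14 measured heart genes held no rise and 1 fall, of the natriuretic peptide convertase gene Corin, where 1.31% of all genes fell. Corin read 8.23, 8.26, 8.52 and 7.41 in controls and 6.38, 7.43, 6.29 and 6.25 in mutants (-1.52 ± 0.299, limma adjusted p = 0.0365). Control 4 lay among the mutants, just below mutant 2.

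Arrays of the same genotype differed widely in muscle RNA. Control 1 was the highest and control 4 the lowest control in 23 of 41 members, against 8.14% of all genes. Mutant 2 was the highest and mutant 4 the lowest mutant in 23 of 41, against 4.24%. Both orders held in 20 of 41, against 1.14%. They were 8 of 11 skeletal and 6 of 7 shared sarcomere genes, Klhl41 and Smpx, Mymx, Chrna1 and Chrng, and Myh6 as the single heart gene. These orders were noticed in the values and are a description of these 8 arrays.

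**Figure D3:**
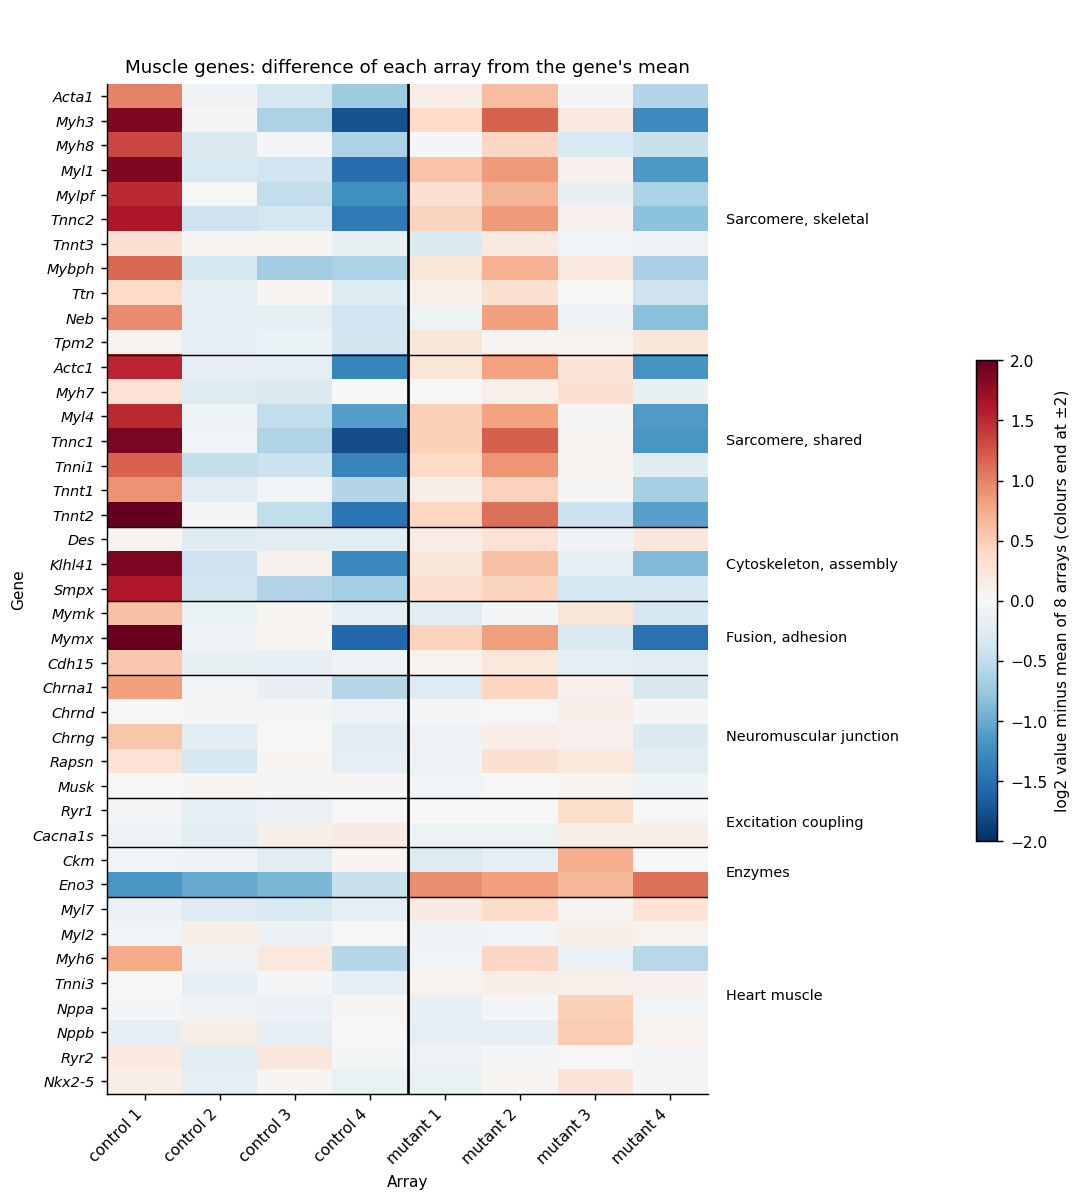
Log2 value of each member on each array minus the gene's mean over the 8 arrays, as colour (red above, blue below, ending at 2 units either way), with genes in rows by role and arrays in columns. Control 1 and mutant 2 are red and control 4 and mutant 4 are blue across most sarcomere rows, and the row of Eno3 is blue in all controls and red in all mutants, as are more faintly those of Myl7 and Tnni3.

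Over the 33 skeletal muscle members the median deviation from the gene's mean was 0.90 in control 1, -0.18 and -0.19 in controls 2 and 3, and -0.57 in control 4. In mutants 1 to 4 it was 0.14, 0.45, 0.06 and -0.36. In the heart muscle genes the same median stayed between -0.13 and 0.11 on every array. The standard deviation within groups exceeded that of 90% of genes in 24 of 41 members and that of 99% in 19. The median range among the 4 controls was 0.759 in the members and 0.213 in all genes, and among the 4 mutants 0.720 and 0.385.

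**Figure D4:**
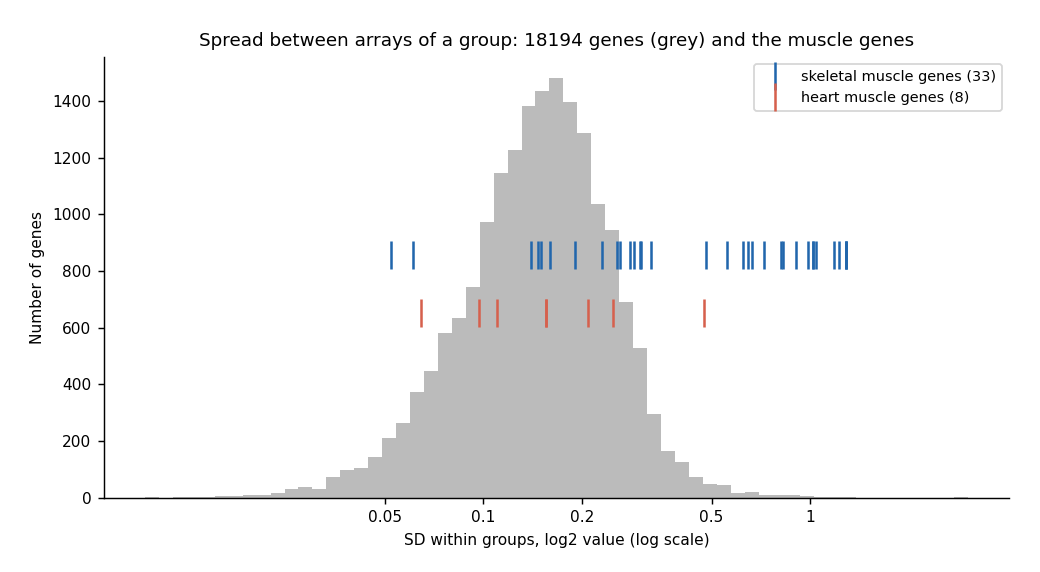
Standard deviation within groups (log2 value, log horizontal axis) for all 18194 genes as a grey histogram of gene counts, with ticks for the 33 skeletal (blue) and 8 heart muscle members (red), whose height carries no value. Of the 41 ticks, 24 lie above 90% of all genes and most of these are blue.

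The standard errors were large where both orders held. For the 20 genes with both orders the median SE was 0.489, 11 of 20 differences were above 0, and the median was 0.02. For the other 21 the median SE was 0.107, 16 were above 0, and the median was 0.12. The sets were split by an order seen in these same values, so the contrast between them is a description and not a test. The interval of Myh3, for example, reached beyond 1 log2 unit on either side of 0, so a change of that size was not detectable in it. CAGCTG stood in 8 of 18 promoters of the first set (44.4%) and 9 of 17 of the second (52.9%).

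The regulators of the lineage followed the same order in part. Myog read 10.76, 8.99, 9.18 and 8.09 in controls and 9.52, 10.04, 9.31 and 8.05 in mutants (-0.03, adjusted p = 0.989). Myod1 read 9.15, 8.10, 8.16 and 7.66 in controls and 8.51, 8.73, 8.20 and 7.58 in mutants (-0.01). Both had control 1 and mutant 2 on top and the number 4 arrays lowest. They were the only 2 of 13 measured regulators with both orders, against 1.14% of all genes. Myf5, the earliest of the family, read 9.50, 8.19, 8.48 and 8.81 in controls and 9.14, 9.22, 8.89 and 8.94 in mutants (0.30), and there control 4 was not the lowest. Of 13 measured regulators none passed. The smallest p belonged to Mef2c, a partner of the MyoD family also made in crest and endothelium (-0.50, adjusted p = 0.347), and to Lbx1, a homeobox gene of migrating precursors (0.18, 0.520).

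With the Myog level of each array as a covariate, an analysis added after the array order had been seen, the members were compared at equal Myog. The median width of the 95% interval of the 20 genes with both orders went from 2.19 to 0.611. Myog itself has both orders, so these 20 genes were chosen by an order they share with the covariate, and the narrowing is no result about them. No further member passed, and Eno3 and Myl7 kept their calls. The differences of the 20 then lay between -0.22 and 0.55. Tnni1 gave 0.55 ± 0.161 (SE, 0.19 to 0.92, adjusted p = 0.153) and Tnnc2 0.31 (0.05 to 0.57, adjusted p = 0.288), the only ones of the 20 whose interval left out 0. Actc1 gave 0.09 (-0.11 to 0.30), Myh3 0.28 (-0.12 to 0.68) and Mymx -0.22 (-0.51 to 0.08). A change in Myog itself between the genotypes would be taken out by this fit.

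A wider list of 68 muscle differentiation genes, 64 of them measured, held no rise and 1 fall (median 0.07), near the 1.31% of all genes that fell. The fall was in Pdlim3, an actinin-associated LIM protein gene that read 8.47, 8.62, 8.57 and 8.35 in controls and 8.19, 7.93, 7.82 and 8.06 in mutants (-0.50 ± 0.0968, limma adjusted p = 0.0344). Every mutant lay below every control. The groups did not overlap in 4 of the 64, against 3.27% (mutants higher) and 7.02% (mutants lower) of all genes. Both array orders held in 7 of the 64, against 1.14% of all genes, and 50 of the 64 were dimmer than the median gene. Mutant 3 was the highest of the 8 arrays in 29 of the 64, against 26.9% of all genes. The median of the list was not computed without mutant 3.

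Markers of other cells in the arch moved as follows, and their part in the muscle results was not tested. Of 12 macrophage markers 8 rose (C1qa, C1qb, C1qc, Adgre1, Csf1r, Cd68, Aif1 and Tyrobp), where 0.835% of all genes rose. Their median was 1.12. Their summed unlogged level was 2281 to 2478 in controls and 4028 to 5680 in mutants, and every mutant lay above every control. Of 8 neuron markers 1 fell, the tubulin gene Tubb3 (-1.67, limma adjusted p = 0.0126), where 1.31% of all genes fell. The neuron sums were 1198 to 1926 in controls and 822 to 1224 in mutants. The neurofilament gene Nefl was 8.79 in control 1 against 7.28 to 7.47 in the other controls, and Nefm 8.58 against 7.40 to 7.72. Control 1 was the highest control in 3 of the 8 neuron markers, these and Dcx, and not in Tubb3 or the other 4. None of 8 smooth muscle markers passed, Tagln (-0.38, adjusted p = 0.0723) and Mylk (-0.25) having the smallest p, with sums of 2848 to 7320 and 2413 to 5186. The smooth muscle actin gene Acta2 was the brightest of these markers and the largest part of their sums, which were not computed without it. It read 12.48, 11.38, 11.43 and 10.56 in controls and 11.50, 11.87, 11.56 and 10.30 in mutants. The highest and lowest array of each group were those of Actc1. Embryonic skeletal muscle also makes Acta2, and cross-hybridization among the closely similar actin genes was not tested. None of 6 measured erythroid markers passed (sums 4121 to 5576 and 3977 to 5291), Epb42 (-0.59) and Slc4a1 (-0.34) having the smallest p. None of 8 endothelial markers passed (sums 3363 to 3826 and 3139 to 4116), Cldn5 (0.21) and Tie1 (0.15) having the smallest p.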

How the data were processed

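The deposited values were log2 expression per probe set on 8 Affymetrix arrays, made by the authors with RMA per the submitters' processing notes (no version was found in the sources). RMA corrects background, equalizes the arrays and summarizes probes, and compresses differences of dim probe sets. Of 45101 probe sets, the platform annotation gave 1 symbol to 34958, several to 932 and none to 9211. Only those with 1 symbol were used, the brightest per gene, which gave 18194 genes. The symbols of all 41 members matched the RefSeq table. They had 59 probe sets, 31 genes having 1. Of the 18 further probe sets 6 had the other sign.

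The groups were compared with limma 3.58.1 (R 4.3.3, lmFit and eBayes, no covariate), with p-values adjusted over all genes and a threshold of 0.05. Intervals are 95%. Members were also tested one by one by exact permutation. The limma fit was tested on simulated arrays with noise independent between genes. These lack the array order that the muscle genes share, so the test does not cover it. The members and all lists were chosen with earlier results of these data known. Values by array are given for members past the threshold, with groups that do not overlap, or with the smallest p or the highest level of their role, and from other lists for those past the threshold or, where none passed, the 2 with the smallest p were named. Mylpf, Myh3, Myl1, Tnnc1, Mymx, Chrna1, Ckm, the regulators Myog, Myod1 and Myf5, and Acta2, Nefl, Nefm, Dcx and Eno2 were picked after their values were seen, as were the printed promoters. The further Ttn probe set that read 6.29 in control 1 was also picked in that way. The number of arrays limits the precision.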

Additional observations from a re-analysis of the deposited data

Results flagged for a closer look

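In 5 of 82 groups of 4 arrays (6.1%), 1 array of a member lay far from the others, where chance flags about 1 in 20. Control 1 was the array in 4 of them. It read 5.14 in Neb against 3.80 to 4.00 in the other controls, 6.31 in Smpx against 4.03 to 4.32, 7.74 in Des against 7.44 to 7.48 and 8.45 in Cdh15 against 7.74 to 7.82. Ryr1 in mutant 3 read 5.79 against 5.43 in each of the other mutants, and mutant 3 is the array whose values spread least over all probe sets.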

How the results depend on the processing

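The 2 members past the threshold became 1 (Eno3) with the replicate block, after quantile normalization, after median centring, among genes above the median level, with every probe set tested, and without both control 1 and mutant 4, an alternative added after seeing the data, as was the Myog covariate. Leaving out each array in turn gave 1 to 2. Myl7 kept its direction throughout, at an adjusted p of 0.074 with the replicate block and 0.223 without control 1 and mutant 4. Array weights added Des. The 390 genes past the threshold became 620 after quantile normalization, 1356 with array weights, 664 at an adjusted p under 0.1, 43 without control 1 and mutant 4, and 104 to 618 with single arrays left out. Of the 41 members, 28 had the other sign in at least 1 of their alternatives and 13 in none (17 alternatives for 11 members, 16 for the 30 dimmer than the median gene). Whether the replicate numbers pair the arrays was not settled, as the labels do not say and few pairs share a number. Same-numbered arrays correlated at -0.124 to 0.406 in their deviations from the group means, and 2 of 8 correlated best with their own number. Control 4 with mutant 4, at 0.406, was the highest of all pairs. The medians without control 1 and mutant 4 were 0.17 for fusion genes and 0.18 for junction genes, 0.61 for skeletal and 1.00 for shared sarcomere genes. Signal limits the dim members: 30 of 41 were dimmer than the median gene and 12 lay under the lower quartile.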
